A study of Mus musculus with 3 samples.

Results

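The genes described here are those of the cytosolic ribosomal proteins, chosen by name from the platform annotation of a two-colour microarray. A probe was taken where its gene symbol was Rpl or Rps followed by a number and, where present, letters, or Rplp0, Rplp1, Rplp2 or Rpsa, and symbols of Rps6k kinases or with -ps were left out. The rule found 113 of 38880 probes and, after probes of a symbol were averaged, 70 of 28335 features, 45 of the large subunit and 25 of the small. The rule reads names and no values, and it was set with earlier results of these data known. Rpsa had no probe under that symbol.

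Each of 3 arrays set RNA of Snf2l-Ex6DEL cortices against RNA of wild-type cortices, both of the 129Sv background and taken from E15.5 embryos (E for embryonic day). Snf2l, now Smarca1, encodes an ATPase of the ISWI chromatin remodellers, and the mutant lacks its exon 6. A single pair of RNAs went onto replicates 1 and 2 with exchanged dyes. Replicate 3 held another pair, so that n = 2 biological pairs. Mutant RNA carried Cy5 on replicates 1 and 3 and Cy3 on replicate 2. The labels do not say whether litters or embryos were pooled or how sexes were matched, so p-values concern the spread between these 2 pairs only. Values are log2 ratios. A positive value is read as higher in the mutant, which is likely but not stated: wild type is the first channel and mutant the second in the labels of every array. If the ratio were formed the other way, every sign would turn.

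Ribosomal proteins and ribosomal RNA form the 2 subunits of the ribosome. The small subunit reads the codons of an mRNA, and the large subunit joins the amino acids and holds the tunnel through which the chain leaves. Their mRNAs are among the most abundant of a growing cell. In vertebrates they begin with a C followed by a run of pyrimidines, the 5′ terminal oligopyrimidine (TOP) motif, through which mTOR signalling controls their translation.

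The start of the transcript is shown for 8 members whose values are described below, since it is a feature that most members are known to share and that the choice by name did not use. The stretches run from 10 bases before to 20 bases after the annotated start, 5′ to 3′ on the gene's own strand, from RefSeq on GRCm38.p6. Capitals mark a C at the start and the unbroken C or T that follow it, where at least 4 follow.
Rps15a, chr7:118116128-118116157, minus strand: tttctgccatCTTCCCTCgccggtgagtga
Rplp2, chr7:141447641-141447670, plus strand: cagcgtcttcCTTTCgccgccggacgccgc
Rps18, chr17:33955646-33955675, minus strand: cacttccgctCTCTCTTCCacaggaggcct
Rps27, chr3:90213629-90213658, minus strand: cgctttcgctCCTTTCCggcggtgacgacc
Rps6, chr4:86857348-86857377, minus strand: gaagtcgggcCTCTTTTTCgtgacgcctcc
Rpl38, chr11:114668570-114668599, plus strand: aagcctcgttCTTTCCCCgttctcttcggt
Rplp0, chr5:115559457-115559486, plus strand: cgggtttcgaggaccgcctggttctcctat
Rpl36a, chrX:134585644-134585673, plus strand: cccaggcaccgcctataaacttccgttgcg

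Of the 70 members, 56 had at least 1 annotated start in the RefSeq table, with 67 starts in all. The C followed by at least 4 pyrimidines stood exactly at the start in 13 of these 67 (19.4%), against 2.51% of all 32851 starts, and the runs were 5 to 13 bases long. The letters CCGGAAG, the core bound by ETS factors such as GABP, were found on either strand in 35.8% of the members' windows, which reach from 250 bases before to 50 after the start, against 8.86% of all windows. AANATGG, part of the site of YY1, was found on either strand in 31.3%, against 16.1%, and TATAAA on the gene's own strand in 7.46%, against 8.32%. In 8 windows the C start and CCGGAAG occurred together. A match of letters is no proof of a site, and an annotated start need not be the base at which transcription begins. The 13 genes with such a start had medians of 0.085, -0.49 and -0.12 on replicates 1 to 3, and the 43 matched genes without one had medians of -0.016, -0.22 and -0.14.

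No ribosomal protein gene passed limma's test of mutant against wild type. The test was run on all 28335 features with Benjamini-Hochberg adjustment at 0.05, and it called 0% of features and 0 of the 70 members. The lowest adjusted p among members was 0.852, and at an unadjusted p of 0.05 it called 0 members, against 1.01% of features higher and 1.51% lower. The lowest unadjusted p of a member in limma's test was 0.0733. Ratios past 2-fold were rarer among the members than among all features. Only 12 of 70 (17.1%) were past 2-fold on any array, against 54% of features, and 0 members were at least 1.5-fold from 1 in one direction on all arrays, against 1.12% of features higher and 1.73% lower. At these shares few members would be counted in any case. The probes of 19 members all sat at a shared value near 0 on replicate 1, described below. These genes could not enter the 1.5-fold count, and could pass 2-fold only on the other arrays. The lower and upper quartiles of the members were -0.36 and 0.086 on replicate 1, -0.55 and -0.0275 on replicate 2 and -0.63 and 0.34 on replicate 3. For all features they were -0.54 and 0.355, -0.45 and 0.456 and -0.49 and 0.38. The members' quartiles were thus closer together on replicates 1 and 2 and further apart on replicate 3.

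**Figure D1:**
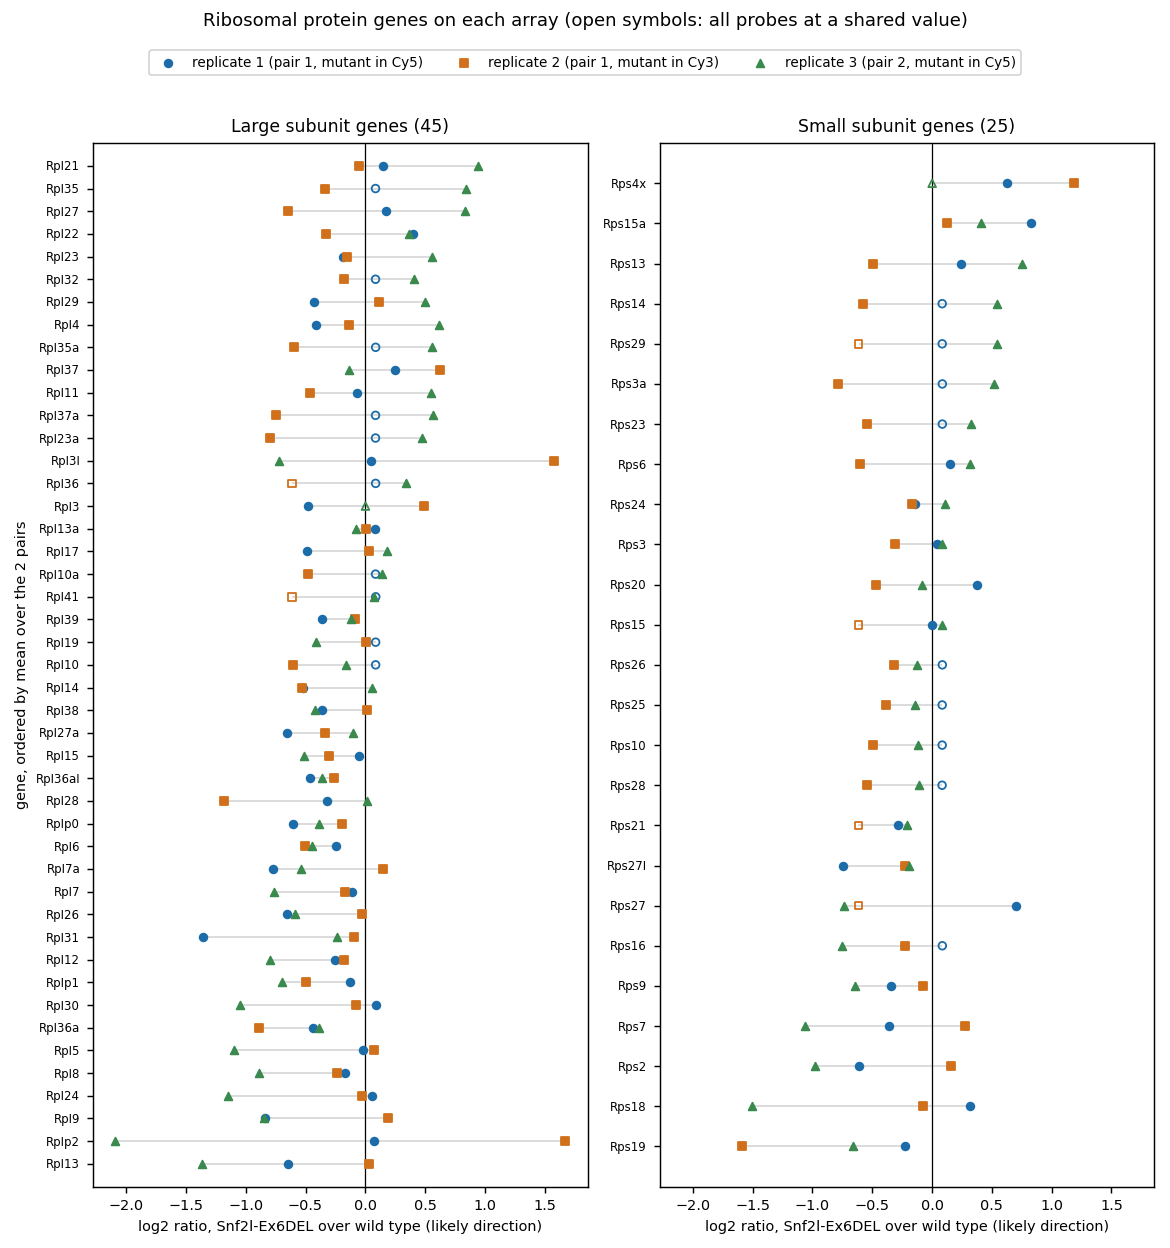
Log2 ratio (x axis) of each ribosomal protein gene (y axis, ordered by the mean over the 2 pairs) on each of the 3 arrays, large subunit left and small subunit right. Grey lines join a gene's lowest and highest array, and open symbols mark genes whose probes on that array all sit at a value shared by many other probes, such as the 19 open circles of replicate 1.

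On the first 2 arrays many ribosomal protein probes had the same value. On replicate 1 the values 0.083 to 0.087 held 419 probes, where neighbouring values of the same width held about 86, and 31 of them were ribosomal protein probes. These were 27.4% of the 113 member probes, against 0.58% of other probes with a symbol. On replicate 2 the values -0.616 to -0.614 held 153 probes, where about 23.5 would be usual, and 10 were ribosomal protein probes, or 8.85% against 0.165% of other named probes. Replicate 3 had no second shared value by the same count. These values are apart from each array's most frequent value (0.009, 0 and 0.001), at which members had 0, 0 and 3 probes.

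At both at once were 118 probes, 83 of them without a symbol, and 22 symbols. Of the 22, 7 were members, namely Rpl17, Rpl36, Rpl41, Rplp1, Rps9, Rps18 and Rps29, and 1100001I22Rik is an older name of the ribosomal protein gene Rpl34. The others included Actb (13 of its 32 probes), the tubulin genes Tuba1, Tuba2, Tuba3, Tuba8 and Tubb2, the thymosin gene Tmsb10, Eef1a1 and Eef2 of translation elongation, Tpt1 and the mitochondrial gene mt-Atp6. Spot intensities were not used here, so whether these spots lay at the upper limit of the scanner was not tested. A shared value gives no ratio of the gene's own.

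**Figure D2:**
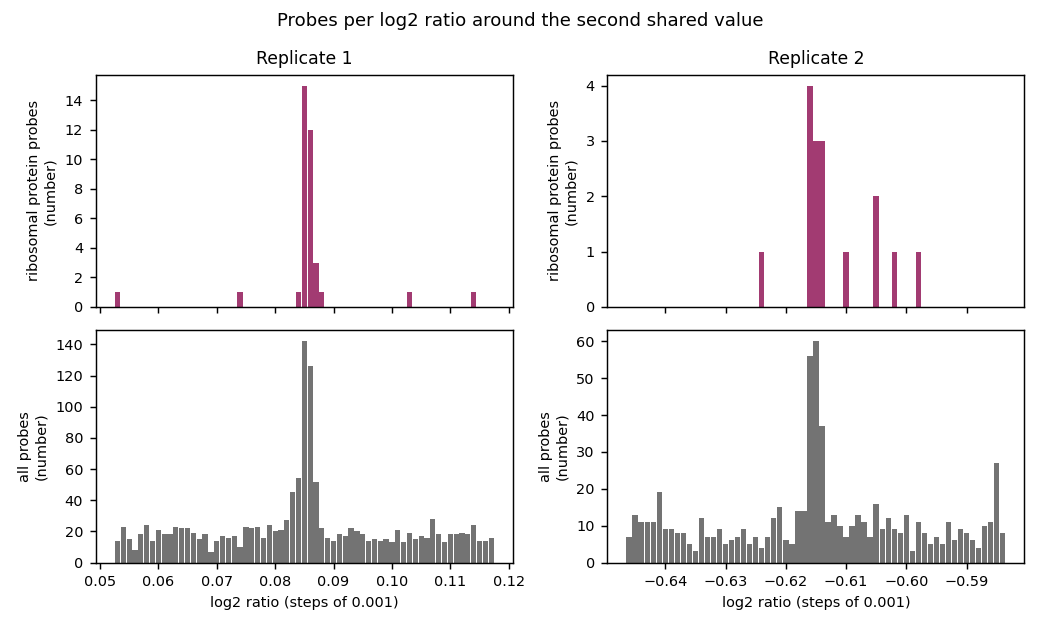
Number of probes (y axis) at each log2 ratio in steps of 0.001 (x axis) around the second shared value of replicate 1 (left) and replicate 2 (right), for ribosomal protein probes (top) and all probes (bottom). Ribosomal protein probes pile up at 0.085 and 0.086 on replicate 1 and at -0.616 to -0.614 on replicate 2.

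The 2 subunits had different shares of probes at these values, with no test of the difference. On replicate 1 the shared value held 17 of 81 large subunit probes (21%) and 14 of 32 small subunit probes (43.8%). Rpl13a alone has 23 large subunit probes, none at that value, and without them the large subunit share was 29.3%. Every probe of 19 genes was at the shared value of replicate 1, among them Rpl10, Rpl19, Rpl32, Rpl35 and Rpl36 of the large subunit and Rps10, Rps14, Rps23, Rps25, Rps26 and Rps29 of the small. On replicate 2 this held for 6 genes, namely Rpl36, Rpl41, Rps15, Rps21, Rps27 and Rps29, and 3 of them lacked an own value on both arrays. A value of their own on all 3 arrays was left for 46 of 70 members, 34 of the large subunit and 12 of the small.

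The 19 genes at the shared value of replicate 1 are described next on the other arrays. Their median on replicate 2 was -0.55, with a range of -0.79 to 0.003 and 18 of 19 below 0, and on replicate 3 it was 0.33, with a range of -0.75 to 0.84 and 7 of 19 below 0. The other 51 members had medians of -0.19, -0.15 and -0.24 on replicates 1 to 3. Of the 19 genes, 3 were at the shared value of replicate 2 as well, and others were far from it, such as Rpl19 at 0.003 and Rpl32 at -0.18.

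Set against 0, more members were below than above, but that count turned with the point taken as 0. On replicates 1 to 3, 33, 53 and 40 of 70 members were below 0 (47.1%, 75.7% and 57.1%), against 45.6%, 41.4% and 41% of features. These counts place the genes at a shared value on the side of that value. With probes at shared values left out, the most frequent value of each array included, 34 of 51 (66.7%), 45 of 64 (70.3%) and 40 of 68 members (58.8%) were below 0, against 52.7%, 49.4% and 52.2% of features. Below 0 on all 3 arrays were 17 members (24.3%) against 9.81% of features, and above 0 on all was 1 member (1.43%) against 8.64%. A feature at an array's most frequent value was counted on neither side. At that value were 11.7%, 16.6% and 21.9% of all probes on replicates 1 to 3, against 0%, 0% and 2.65% of member probes. The shares 9.81% and 8.64%, here and below, are thus lowered by features that could not be counted. With replicates 1 and 2 centred on their second shared value, by contrast, 3 members were below (5.02% of features) and 9 above (12.2% of features). That recentring raised the median over the pairs by 0.13 for all features and for the members, and it was chosen after the data were seen. It moved the 2 arrays in opposite directions, and the medians of all features became -0.076 on replicate 1 and 0.615 on replicate 2. On replicate 2, 22458 of 28335 features and 60 of 70 members were then above 0. Without spots at the second shared value, 15 members were below and 1 above.

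The medians of the members were 0.042, -0.25 and -0.12 on replicates 1 to 3, and the mean over the pairs had a median of -0.17, against -0.027 for all features. After recentring on the shared values the median over the pairs was -0.033, against 0.11 for all features. With probes at shared values left out, the members' medians were -0.25, -0.21 and -0.12 on replicates 1 to 3, against -0.050, 0.014 and -0.054 for all features. They were thus below 0 on both dye-swapped arrays and on replicate 3, but over 51, 64 and 68 members. The 19 genes left out on replicate 1 were all above 0 there, so leaving them out lowers that median. The median SD between the pairs was 0.38 for a member and 0.54 for a feature, larger than the median size of the mean ratio, 0.30 for members and 0.37 for features.

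Large subunit genes had medians of -0.11, -0.18 and -0.14 on replicates 1 to 3, and small subunit genes had medians of 0.085, -0.47 and -0.11. The median of the large minus that of the small subunit was -0.20 on replicate 1, 0.29 on replicate 2 and -0.028 on replicate 3. It turned its sign between 2 arrays that carried the same pair of RNAs with exchanged dyes. The small subunit median of replicate 1 is the shared value itself. With own values alone the differences were -0.32, 0.15 and -0.038. Over the 2 pairs the difference averaged -0.027 (-0.027 in pair 1 and -0.028 in pair 2), with p = 0.5 in a two-sided exact permutation of signs, the smallest p that 2 pairs allow. Below 0 on all arrays were 13 of 45 large subunit genes (28.9%) and 4 of 25 small subunit genes (16%), against 9.81% of features. At the shared value of replicate 1, which is above 0 and bars a gene from this count, were 10 large and 9 small subunit genes.

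Rpl13a, a protein of the large subunit surface, was spotted 23 times. Its spots had a mean of 0.077 ± 0.22 on replicate 1, 0.0052 ± 0.36 on replicate 2 and -0.080 ± 0.42 on replicate 3 (SD, 23 spots). They ranged over -0.40 to 0.35, -0.71 to 0.70 and -0.72 to 0.63. Whether single spots of other genes vary as much was not tested. The sources used here do not say whether all its spots hold the same oligonucleotide. The other 69 members had SDs of 0.38, 0.52 and 0.63. Of those with a value of their own, 29 of 50, 54 of 63 and 49 of 67 genes lay within the range of the Rpl13a spots on replicates 1 to 3, and their SDs were 0.42, 0.53 and 0.63.

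Outside that range on 2 arrays were 7 genes, 0 were outside on all 3, and these 7 were picked by their values. Rpl13 read -0.64, 0.027 and -1.37, Rpl9 -0.84, 0.19 and -0.84, and Rps2, at the mRNA entry of the small subunit, -0.61, 0.16 and -0.98. Each was below the Rpl13a range on the 2 arrays with the mutant in Cy5 and within it on the array with the mutant in Cy3. Rpl36a was below the range on both arrays of pair 1, and Rps4x, encoded on the X chromosome, was above it on both. Rplp2 and Rps27 were above on 1 array and below on another.

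**Figure D3:**
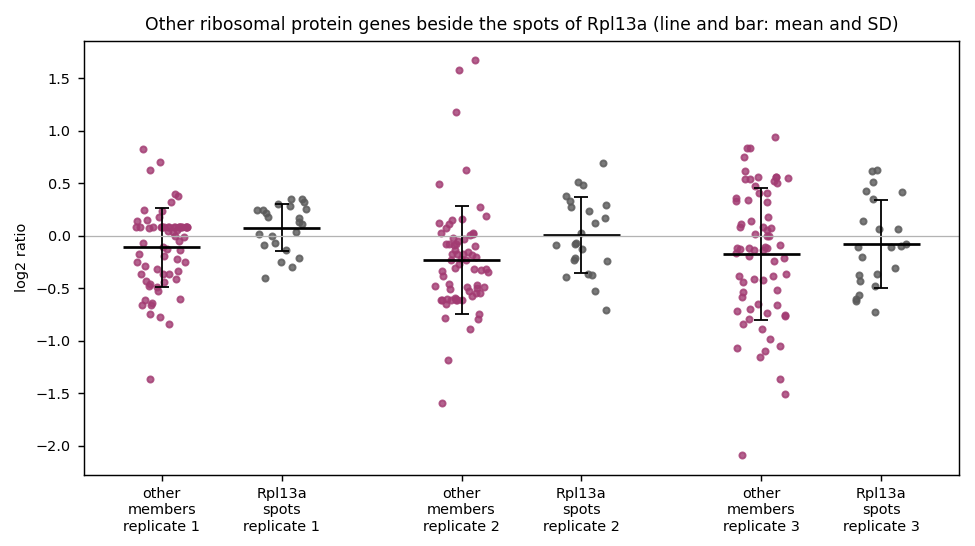
Log2 ratios (y axis) of the other 69 ribosomal protein genes and of the 23 spots of Rpl13a on each array, with lines and bars for mean and SD. The other genes spread more widely (SD 0.38, 0.52 and 0.63) than the spots of Rpl13a (0.22, 0.36 and 0.42), and most lie within the range of these spots.

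Besides Rpl13a, 16 members had 2 or 3 probes. The probes of a gene differed in sign in 7, 9 and 10 of them on replicates 1 to 3, and in 15 on at least 1 array. With probes at shared values left out, these counts were 0, 6 and 9, and 11 on at least 1 array. Genes left with 1 probe, such as Rps9 and Rps18 on replicate 1, could not differ in these latter counts. With all probes, the median gap between a gene's highest and lowest probe was 0.43, 0.78 and 1.11 on replicates 1 to 3. Rps18 had the widest gap of these 16 genes: 1 probe read 0.086, -0.615 and 0.093, the first 2 being shared values, and the other 0.55, 0.46 and -3.10. A further probe, under the symbol RPS18 outside the rule, read 0.23, -0.17 and -0.33. The probes of Rps19, whose human gene is mutated in Diamond-Blackfan anaemia, read -0.15, -2.93 and 0.001 and -0.29, -0.26 and -1.31. Of these, 0.001 is the most frequent value of replicate 3, hence no measurement. Gaps over 2 were also seen in Rpl37 on replicate 2 and in Rpl21 and Rps13 on replicate 3. Outside the rule, a probe under 2210411K19Rik, a synonym of Rpl41, read -0.22, 0.007 and -6.01. The probe of Rpl41 itself read 0.087, -0.614 and 0.076, the first 2 being shared values.

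The stalk of the large subunit, which recruits the GTPases of translation, is built of Rplp0, Rplp1 and Rplp2. Rplp0 read -0.60, -0.20 and -0.38 on replicates 1 to 3 and averaged -0.39 ± 0.21 over the 2 pairs (moderated SE and an adjusted p of 0.852 from limma). It was below 0 on all arrays, but 2 further probes carry its older name Arbp, and their mean was -0.036, -0.35 and 0.47. Rplp1 read -0.13, -0.50 and -0.70, where 1 of its 2 probes was at the shared value of replicates 1 and 2. Rplp2 read 0.074, 1.67 and -2.09, the widest range of any member, so the 3 stalk genes had no common direction.

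Rpl5 and Rpl11, which carry the 5S ribosomal RNA and bind Mdm2 when ribosome assembly fails, did not go together. Rpl5 read -0.016, 0.072 and -1.10 and Rpl11 -0.071, -0.46 and 0.55, so that replicate 3 put them on opposite sides of 0. Rpl3, of the peptidyl transferase region, read -0.48, 0.49 and 0.001, of which the last is that array's most frequent value, hence no measurement. Rpl10, which joins the large subunit late in its assembly, read 0.086, -0.61 and -0.16, with the shared value on replicate 1.

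Of the large subunit genes with known roles in mouse development, Rpl24, mutated in the Belly spot and tail strain, read 0.053, -0.026 and -1.15. Rpl38, mutated in Tail short mice and needed for the translation of some Hox mRNAs, read -0.36, 0.015 and -0.42 over 3 probes. Rpl22, needed for T cell development, read 0.40, -0.33 and 0.36. Rpl22 thus lay on 1 side of 0 on the arrays with the mutant in Cy5 and on the other with the dyes exchanged. The mean of Rpl38 did so narrowly, but none of its 3 probes did so alone. Of these probes, 1 was at the shared value of replicate 1.

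Members below 0 on every array are given in the order of their weakest array. Rpl36a read -0.44, -0.89 and -0.38 and averaged -0.52 ± 0.24 over the 2 pairs (adjusted p of 0.852 from limma). Its autosomal copy Rpl36al read -0.46, -0.27 and -0.36, and the similar sequences may share signal. Rpl6, a surface protein of the large subunit, read -0.25, -0.50 and -0.44 and Rpl12, at the base of the stalk, -0.25, -0.18 and -0.80. Their means were -0.41 ± 0.22 and -0.51 ± 0.29, each with limma's adjusted p = 0.852. None of these genes has a second probe on the array.

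Small subunit genes below 0 on all arrays were Rps9, Rps19, Rps21 and Rps27l. Of the 2 probes of Rps9, 1 was at the shared value of replicates 1 and 2, and the other read -0.76, 0.46 and -1.41. Its mean on replicate 2, -0.0755, was thus below 0 only through the shared value. A further probe, under a synonym of Rps9, read -0.63, 0.35 and -0.77. Rps19 averaged -0.78 ± 0.23 over the 2 pairs, but its 2 probes were far apart on replicate 2 as given above. Without the spot at the most frequent value of replicate 3 it averaged -1.11. Rps21 read -0.29, -0.616 and -0.21, where the middle value is the shared value of replicate 2. Rps27l, a copy of Rps27 that p53 induces in human cells, read -0.75, -0.23 and -0.20, and Rps27 itself 0.70, -0.616 and -0.74, again with the shared value on replicate 2. Limma's adjusted p was 0.852 for each of Rps19, Rps21, Rps27 and Rps27l.

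The only member above 0 on all arrays was Rps15a, a small subunit protein, at 0.82, 0.12 and 0.41. From 1 probe it averaged 0.44 ± 0.22 over the 2 pairs (adjusted p of 0.852 from limma). Rps4x read 0.62, 1.18 and 0.001, where replicate 3 is no measurement. Rps6, the substrate of the S6 kinases, read 0.15, -0.60 and 0.32. Rps7 read -0.36, 0.28 and -1.07 and Rps20, mutated in a dark skin mouse strain, 0.38, -0.47 and -0.085.

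Some copies of ribosomal protein genes are used in few tissues or kept as near duplicates. Rpl3l, the copy of Rpl3 in heart and skeletal muscle, read 0.046, 1.58 and -0.72, where the list of muscle and skeletal tissue genes given further on was far below 0 on both arrays of pair 1. Symbols outside the rule but tied to it by synonym included Rpl22l1, at -1.33, -0.84 and -0.18, and Rpl39l, known from testis, at -2.36, -3.27 and 3.27. Rps4l read -1.01, -0.43 and -0.17, and Rpl7l1 0.036, -0.45 and 0.20 over 2 probes. Of the 7 measured genes of the list of such copies, 4 were below 0 on all arrays, against 9.81% of features, and 2 of the 4, Rpl36al and Rps27l, are members counted above. Rpsa, the laminin receptor protein of the small subunit, was present under the name Lamr1 and read 0.87, 0.51 and 0.001. Both its probes were at the most frequent value of replicate 3, and on replicate 2 they read -0.41 and 1.44.

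The 3 arrays shared little of the order of the members. Taken over the 70 genes, none an independent replicate, Pearson's r came to -0.029 between the dye-swapped replicates 1 and 2, 0.22 between replicates 1 and 3 and -0.40 between replicates 2 and 3. Over all features these were 0.24, -0.0091 and -0.094. Without Rplp2 the members' r between replicates 2 and 3 was -0.28, and over the 46 members with own values on all arrays it was -0.33. The difference between the dye-swapped arrays would hold any dye effect, and its r with replicate 3 was 0.45 over the members and 0.071 over all features, while that of the pair 1 mean was -0.19 and -0.066. Without Rplp2 the members' values were 0.37 for the difference and -0.047 for the mean, and over the 46 members with own values 0.33 and -0.17. Mitochondrial ribosomal protein genes, fewer of which sit at a shared value (0.877% of probes on replicate 1), gave -0.031, 0.061 and -0.35 over 74 genes with own values. Over these 74 genes the r with replicate 3 was 0.29 for the dye difference and -0.22 for the pair 1 mean. All features with own values gave 0.12 and -0.10. The part of the dyes in the members' ratios was not tested further.

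**Figure D4:**
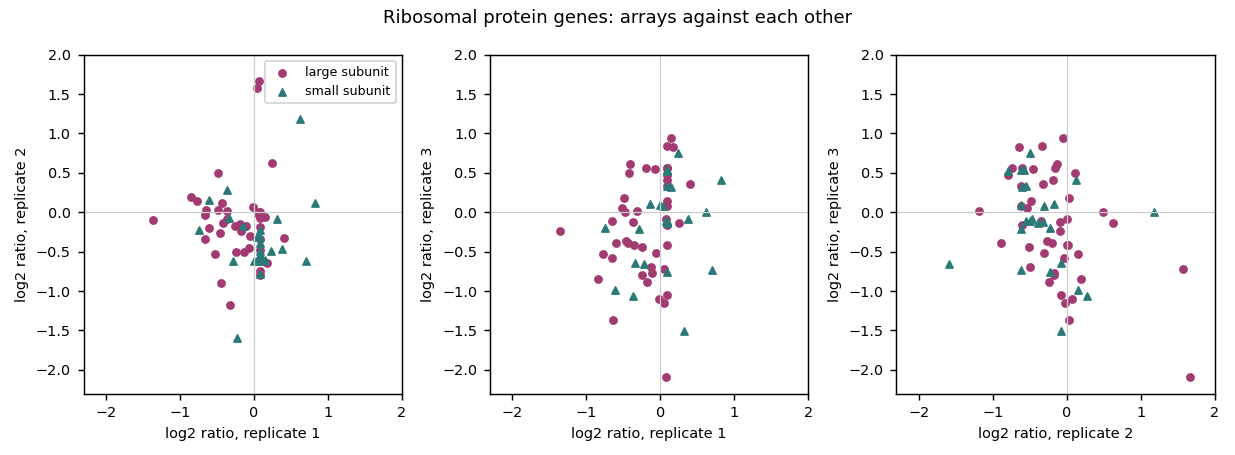
Log2 ratios of the large and small subunit genes on 1 array against another, as replicate 2 against 1, 3 against 1 and 3 against 2 from left to right. No panel shows a close relation (r = -0.029, 0.22 and -0.40), and the column of points at 0.085 is the shared value of replicate 1.

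Other genes of translation and ribosome production gave no calls in limma's test either (0 of 212 measured genes over 7 lists at an adjusted p of 0.05). For elongation factors and other TOP mRNAs the medians of replicates 1 to 3 were -0.12, -0.18 and -0.23. Of these 14 genes, 5 were below 0 on all 3 arrays (9.81% of features) and 0 above on all 3 (8.64% of features). Among the 5 is Fau (-0.13, -0.165 and -0.23), itself a ribosomal protein gene whose symbol is outside the rule. Eef1b2, a subunit of the elongation factor exchange complex, read -0.40, -0.68 and -0.30, and Pabpc1, which binds poly(A) tails, -0.47, -0.68 and -0.19. Initiation factor genes had medians of -0.068, 0.025 and 0.080 over 33 genes. On all arrays 3 were above 0 (8.64% of features) and 3 below (9.09%, against 9.81% of features). Eif3e, a subunit of initiation factor 3, read -1.41, -0.11 and -0.48.

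For mitochondrial ribosomal protein genes the medians were -0.086, -0.040 and -0.34. Below 0 throughout were 11 of 77 (14.3%, against 9.81% of features), for example Mrps15 at -0.80, -0.22 and -0.76, and 3 were above (8.64% of features). Ribosome assembly genes showed medians of -0.096, 0.12 and -0.27. Below 0 throughout were 7 of 43 (16.3%, against 9.81% of features), among them Tsr1 of small subunit maturation (-0.38, -0.79 and -0.42). Above 0 throughout were 3 (8.64% of features), led by Noc3l (1.32, 0.37 and 0.77). Genes of RNA polymerase I, which transcribes ribosomal RNA, had medians of 0.060, 0.30 and -0.020. Of these 15 genes, 3 were above 0 throughout (8.64% of features) and 1, Polr1a, was below (6.67%, against 9.81% of features). Polr1a, the largest subunit of the polymerase, read -0.43, -1.52 and -1.42. It averaged -1.20 ± 0.26 over the 2 pairs (adjusted p of 0.852 from limma), the 1 gene of these lists with an unadjusted p under 0.05.

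Genes of mTOR signalling and TOP mRNA control had medians of 0.018, 0.42 and 0.001 over 17 genes. Above 0 on all arrays were 4 of them (8.64% of features), and 1, Larp1, was below (5.88%, against 9.81% of features). Larp1, which binds the TOP motif, read -0.69, -0.20 and -0.72. Eif4ebp2, a repressor of cap-dependent initiation and 1 of the 4 above, read 0.84, 0.56 and 0.31. The 13 genes of nucleolar stress and p53 showed medians of -0.022, 0.19 and -0.052. Throughout, 2 were above 0 (8.64% of features) and 3 below (23.1%, against 9.81% of features). Ccng1, a p53 target, read -0.80, -0.90 and -0.15 and Pmaip1, another, 1.04, 1.24 and 0.18.

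Markers of other tissues had far larger ratios than ribosomal protein genes, with medians of opposite sign in the 2 pairs except for microglia, and 0 of them passed limma's test. Of the list for muscle, cartilage, bone and skin, all 8 of 8 measured genes were below 0 on replicate 1, 7 on replicate 2 and 1 on replicate 3, with medians of -5.43, -4.89 and 0.77. Meningeal markers had medians of -4.50, -3.50 and 2.35 over 5 genes, red cell markers -2.07, -3.41 and 1.07 over 5, and microglial markers -1.39, -0.70 and -0.86 over 4. Cortical neuron and progenitor markers had medians of 1.83, 1.41 and 0.015 over 11 genes. None of their 20 probes was at an array's most frequent value. Their levels could not be checked from ratios. The part of these tissues in the members' ratios was not tested. Smarca1, the targeted gene, has 1 probe of unstated position and read -0.017, 0.36 and 3.11, which checks neither the labels nor the deletion.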

How the data were processed

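The deposited values are log2 ratios of the 2 channels of each array, read as such from their signs and range. Per the labels' protocols, RNA came from an RNeasy mini kit, and labelling used the 3DNA Array 900 kit. Scanner, background correction, normalization, spot filter and numerator are not given in the sources used here. Array medians were 0.009, 0 and 0.001. Precision is limited by the number of arrays.

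Of 38880 probes, 30457 had 1 symbol and 8423 none. Of 21476 symbols, 12795 were current in RefSeq GRCm38.p6, 8317 were updated through a synonym and 364 kept. Members kept the platform's symbol. Probes of a symbol were averaged. Replicates 1 and 2 were averaged to 1 pair and tested with replicate 3 in limma 3.58.1 under R 4.3.3 (lmFit, eBayes, Benjamini-Hochberg), with 2.08 total degrees of freedom. Values after ± are limma's moderated SE unless SD is written. A second shared value was a run of at least 3 steps of 0.001, each with at least 30 probes and over 2 times the local median count. The procedure was tested on simulated data. Python 3.11.15 and matplotlib 3.10.9 drew the figures.

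The members and lists were chosen with earlier results of these data known. Genes were named by rule: up to 8 highest and 8 lowest members of 1 sign, ranked by the array nearest to 0, members and copies listed for their roles, the members with most or most divergent probes, Smarca1, and up to 4 genes per list. Genes at shared values and outside the Rpl13a range were named after their values were seen. Alternatives covered centring, scaling, probe summaries, shared values, the reading of the rule, each array left out, a dye term and other fits.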

Additional observations from a re-analysis of the deposited data

How the results depend on the processing

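The alternatives without spots at the second shared value, with recentring on it and with symbols added by synonym were chosen after seeing the data. In every fit run, with a dye term, with independent arrays and with robust eBayes too, 0 members and 0 features had an adjusted p under 0.05 in limma. Without adjustment 715 features did. A random block for the pair gave no estimate of the correlation and was not run. No paired analysis was possible because each ratio already pairs mutant with wild-type RNA, and no second group of arrays shares replicate numbers for a further block. The count of members on 1 side of 0 on all arrays, 18, was 30 to 44 when 2 arrays were used in place of 3. The count at 1.5-fold, 0, was 1 at the laxer fold, 1 with every probe as a feature and 1 to 3 with 1 array left out. The median of all members was -0.033 with recentring on the shared values; that of the large subunit was -0.079 and that of the small subunit 0.012. The large subunit median was -0.079 too with every probe as a feature, and -0.35 without the shared spots. With 1 array left out the small subunit median was -0.26 to -0.015. The large minus small difference of medians over the pair means, -0.091, turned to 0.054 with every probe as a feature, where Rpl13a counts 23 times, and ranged over -0.22 to 0.062 with 1 array left out. Only members named by rule were followed singly through these alternatives. With 1 array left out, those of them that turned sign ranged over -1.01 to 0.87 for Rplp2, -0.23 to 0.23 for Rps6, -0.56 to 0.028 for Rpl5, -0.27 to 0.24 for Rpl11, -0.59 to 0.013 for Rpl24, -0.28 to 0.14 for Rps20 and -0.24 to 0.25 for Rpl3. The others ranged over -0.34 to 0.81 for Rpl3l, -0.68 to 0.042 for Rps27, -0.037 to 0.041 for Rpl13a, -0.17 to 0.20 for Rpl23, -0.79 to 0.12 for Rps18 and -0.13 to 0.49 for Rps13. Among the followed genes of 1 sign on all arrays, those that moved by over 1.5 times were Rps15a (0.27), Rps27l (-0.21) and Rpl39 (-0.10) without replicate 1, Rps19 (-0.44) without replicate 2, and Rpl12 (-0.21), Rplp1 (-0.31), Rpl7 (-0.14) and Rpl27a (-0.50) without replicate 3. Members not followed moved as well, such as Rpl8, at -0.54 over the pairs and -0.20 in pair 1 alone. Leaving out replicate 3 leaves 1 pair and no test. Rpl3 was -0.0052 with scaled arrays, Rps20 0.0069 without shared spots and 0.067 with recentring, and Rpl13a 0.11 with recentring. The cause of these turns was not tested.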
